A study of Mus musculus with 23 samples.

Results

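This report sets the enhancer regions of the anterior cingulate cortex (ACC) against those of the retrosplenial cortex (RSC), neighbouring areas along the midline of the mouse cortex. Its members are the 112327 autosomal regions in the ACC and RSC enhancer lists of both histone marks, out of 193126 regions in all 8 enhancer lists of the series. They were chosen by the overlap of the deposited lists. An ACC enhancer region was called ACC-only when it shared no base with any region of the RSC full list of that mark, and RSC-only was the reverse. Regions of the ACC and RSC enhancer lists that shared at least 1 bp were called common. The remaining regions met only regions that the authors had left out of the other area's enhancer list, called excluded regions here because the sources used here do not state the rule that removed them.

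The labels give adult C57BL6J mice, postnatal day 56, with no treatment, transgene or allele named for any group. ACC and RSC were dissected from both hemispheres of unstained sections of 500 µm, and each area had 2 libraries for H3K27ac, 2 for H3K4me2 and 2 for input chromatin. The sources used here state neither the animals behind each library nor their sex. Each area and mark has 1 deposited list with no value per library, so there are no replicate values, and no difference below carries a test. Bracketed ranges are 95% confidence intervals by Wilson's method and reflect counting error alone, since regions are not replicates. Depth is unknown, because no read counts were analysed here. The identity of the dissected areas was not checked against marker genes, since no gene annotation of this genome build was used, and bulk tissue does not tell which cell types carried a region.

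H3K27ac, acetylation of lysine 27 on histone H3, marks enhancers and promoters that are active. H3K4me2, dimethylation of lysine 4, marks enhancers and promoters that are active or poised, so a site can carry H3K4me2 without acetylation. ACC takes part in attention, pain and the control of action, and RSC in spatial memory and navigation. RSC is closely wired with the hippocampal formation. The lateral (LEC) and medial (MEC) entorhinal cortex, whose lists are read over the sets below, link neocortex to hippocampus.

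The first question was how many enhancers the areas share. Most acetylated enhancer regions were common: 15718 of 27194 ACC regions, or 57.8% (57.2 to 58.4), and 15858 of 23665 RSC regions, or 67.01% (66.4 to 67.6). ACC-only H3K27ac regions numbered 10863, which is 39.9% of the ACC list. RSC-only regions numbered 6090, which is 25.7% of the RSC list. H3K4me2 gave nearly the same shares, with 13497 ACC-only regions or 40.4% of 33418, and 6706 RSC-only regions or 23.9% of 28050. These shares follow from the rule and are a description.

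**Figure D1:**
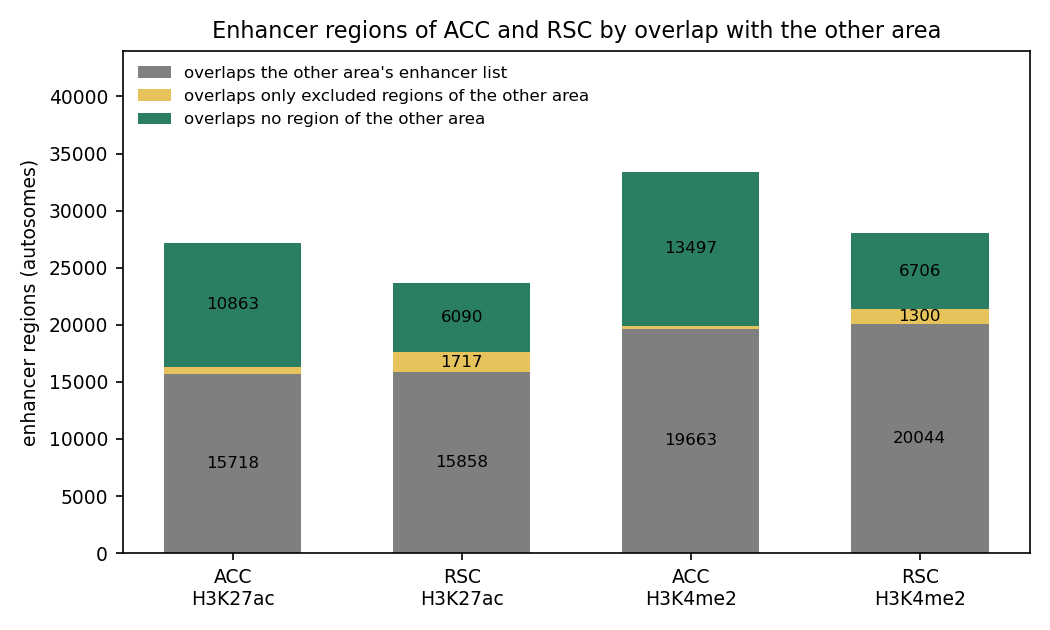
Number of autosomal enhancer regions (vertical axis) in the ACC and RSC lists of each mark, divided by what they overlap in the other area. The ACC-only part (10863 and 13497 regions) is taller than the RSC-only part (6090 and 6706) for H3K27ac and H3K4me2.

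The lists differ in length, and the shares moved when the ACC lists were cut. The ACC full list held 46928 autosomal H3K27ac regions covering 178 Mb, and the RSC full list 40399 covering 141 Mb. A longer list meets more of the other list and leaves more of its own unmatched. With the ACC lists cut to the number of regions in the RSC lists, the widest kept, the H3K27ac shares drew together to 35.1% ACC-only and 32.1% RSC-only. For H3K4me2 they became 34.1% and 30.7%. The lead of ACC in these shares was thus much smaller after this cut. The cut took away the narrowest ACC regions and left the narrow RSC regions in place. Of ACC regions under 1000 bp, 73.5% in H3K27ac and 76.2% in H3K4me2 were ACC-only. Part of the narrowing therefore comes with the cut, and the part of list length in the lead was not tested.

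Regions carried by 1 area were narrow. The median ACC-only H3K27ac region was 1500 bp wide and the median RSC-only region 1425 bp, against 2600 bp for ACC regions and 2338 bp for RSC regions that were common. H3K4me2 medians were 1300 bp in the ACC-only and 1200 bp in the RSC-only set, against 1850 and 1600 bp in the common ones. As a result ACC-only regions held 26.5% of the H3K27ac enhancer bases of ACC, and RSC-only regions 16.3% of those of RSC. Broad regions in 1 area only were few: 45 ACC-only and 9 RSC-only H3K27ac regions reached 10 kb, against 709 and 527 common ones.

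The share in 1 area fell steadily with width. Among H3K27ac regions under 1000 bp, 73.5% (71.9 to 75.1) of ACC regions and 55.6% (53.6 to 57.5) of RSC regions were carried by that area only. From 4000 bp upward it was 14.8% (13.9 to 15.7) in ACC and 7.32% (6.58 to 8.13) in RSC. H3K4me2 followed the same course, from 76.2% to 13.4% in ACC and from 51.9% to 4.65% in RSC. Under the rule of 1 shared bp, a wider region has more bases that can meet the other list. How much of this fall, and of the narrow medians above, comes with the rule was not tested. A narrow region can also be a weak one that missed the threshold in the other area, and with no enrichment values this was not tested.

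**Figure D2:**
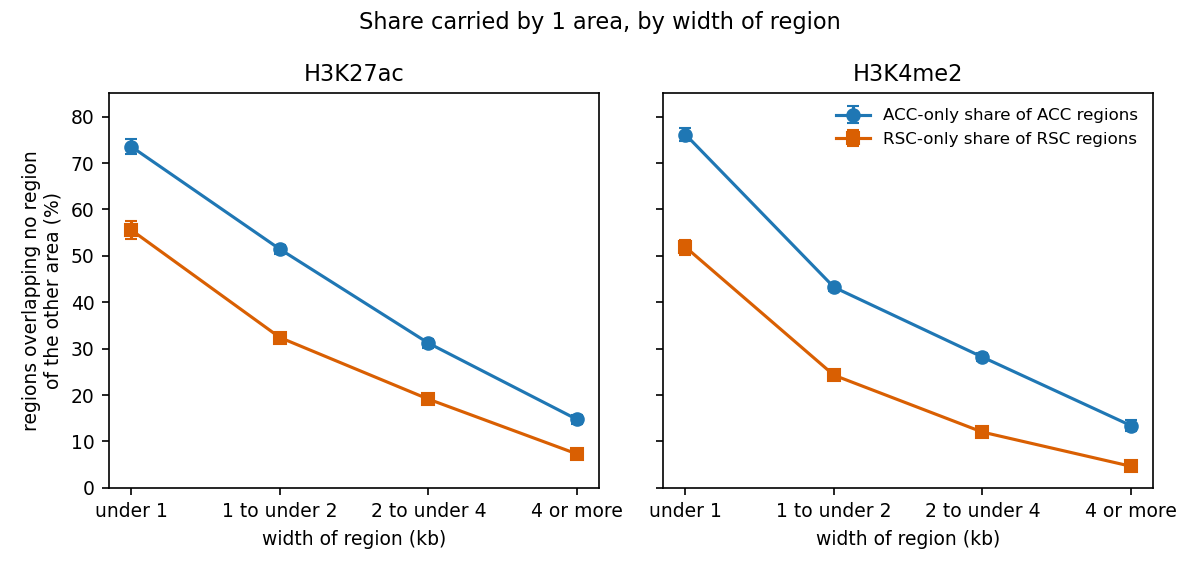
Percentage of regions overlapping no region of the other area (vertical axis) by width of the region in kb (horizontal axis), for H3K27ac and H3K4me2, with Wilson 95% intervals. Both areas fall from the narrowest to the widest class, and ACC lies above RSC in all 4 classes of both marks.

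Few members lay near the edge of the rule. The median ACC-only H3K27ac region was 11225 bp from the nearest RSC full-list region, and the median RSC-only region 9500 bp from the nearest ACC one. Just outside the overlap, 13 ACC-only and 12 RSC-only H3K27ac regions had a gap of at most 100 bp. Just inside it, 13 ACC and 7 RSC enhancer regions met the other full list by 1 to 100 bp. Within 1000 bp of the other list lay 1.67% of ACC-only and 2.41% of RSC-only regions.

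Where the areas shared an enhancer, they shared most of it. Of 16350 overlapping pairs of ACC and RSC H3K27ac regions, 14260 matched 1 region to 1 region. In these pairs the median overlap was 77.8% of the wider region, and the midpoints lay 212.5 bp apart (median). ACC regions were the wider of the pair in 55.2% of H3K27ac pairs and 63.9% of the 18929 such H3K4me2 pairs. A region at least 2 times as wide as its partner was on the ACC side in 1473 and on the RSC side in 682 H3K27ac pairs. Splits occurred in both directions: 577 ACC regions held several RSC regions, and 437 RSC regions held several ACC ones.

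The 3 common pairs named here were picked for the most shared bases, which favours pairs of equal extent. The ACC region chr13:59165626-59203050 and its RSC partner shared 37350 bp, of which the LEC enhancer list covered 37125 bp and the MEC list 27300 bp. H3K4me2 covered 17800 bp of this stretch in ACC and 10350 bp in RSC. The next pair shared 35725 bp at chr9:48556026-48591750, where LEC covered 16525 bp and MEC 17250 bp. The last of the named pairs shared 32950 bp at chr6:135837801-135870750, with 32200 bp covered in LEC and 29200 bp in MEC. General knowledge of this build places that stretch in Grin2b, which encodes a subunit of the NMDA-type glutamate receptor. No annotation was used to check the gene names given here.

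The next comparison asked whether the second mark goes the same way as the first, and it used H3K4me2 lists that had no part in choosing the H3K27ac sets. H3K4me2 leaned to the acetylated area in both sets, and much of it was present in both areas. Of 10863 ACC-only H3K27ac regions, 2860 (26.3%) overlapped full-list H3K4me2 of ACC alone, 3375 (31.1%) of both areas and 634 (5.84%) of RSC alone. The other 3994 (36.8%) carried it in neither area. Of 6090 RSC-only regions, 750 (12.3%) had H3K4me2 in RSC alone, 1467 (24.1%) in both, 455 (7.47%) in ACC alone and 3418 (56.1%) in neither. H3K4me2 in both areas was thus less frequent in these sets than over all ACC (44.1%) and all RSC (45.6%) H3K27ac enhancer regions. H3K4me2 in neither area was more frequent than over all ACC (27.9%) and all RSC (30.1%) regions.

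Among regions with H3K4me2 in either area, it was in the acetylated area alone for 41.6% (40.5 to 42.8) of ACC-only regions. The same share was 26.98% (26.4 to 27.6) over all ACC H3K27ac enhancer regions and 19.2% (18.5 to 19.9) over the common ones. For RSC-only regions it was 28.1% (26.4 to 29.8), against 14.9% (14.3 to 15.4) over all RSC regions and 13.01% (12.4 to 13.6) over common ones. The ratio of own-area to other-area H3K4me2 was 4.51 in the ACC-only set and 1.65 in the RSC-only set, where the whole lists had 2.27 and 0.749. Both sets were therefore shifted toward their own area relative to their list, which includes the set itself. Over common regions the ratio was 1.46 in ACC and 0.659 in RSC. With the ACC lists cut to the RSC length, the shares in the acetylated area alone were 36.8% in the ACC-only and 36.7% in the RSC-only set. The cut took the narrowest regions from ACC alone, and no share over the whole lists after it is given here. These values therefore do not tell whether the areas differ.

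**Figure D3:**
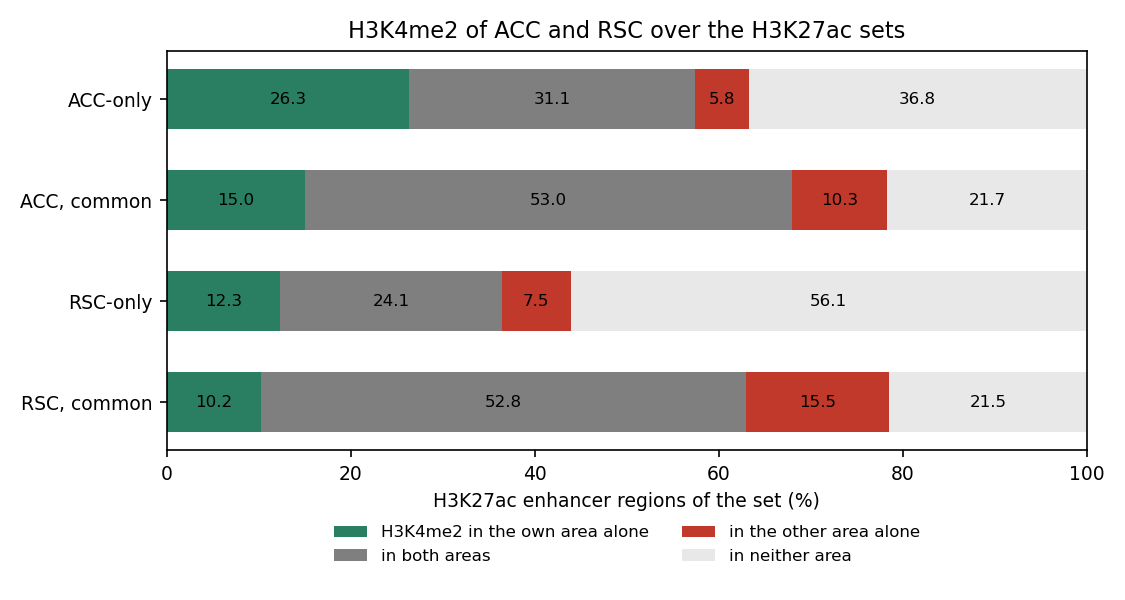
Percentage of H3K27ac enhancer regions of each set (horizontal axis) by the full-list H3K4me2 regions they overlapped. H3K4me2 in the own area alone is most frequent in the ACC-only set (26.3%), and 56.1% of RSC-only regions overlapped H3K4me2 in neither area.

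RSC-only acetylation most often lacked H3K4me2. No H3K4me2 region of any of the 4 subregions overlapped 3187 RSC-only regions, or 52.3% (51.1 to 53.6). The value was 31.8% (30.9 to 32.7) for ACC-only regions, and 18.7% (18.1 to 19.3) and 18.4% (17.8 to 19.01) for common regions of ACC and RSC. The gap held at matched width: from 1000 to under 2000 bp, 44.4% of RSC-only and 63.3% of ACC-only regions carried H3K4me2 of ACC or RSC. From 2000 to under 4000 bp it was 47.8% and 71.4%. The RSC H3K4me2 full list was shorter than that of ACC (45335 against 53038 regions). With the ACC lists cut to the RSC length, 63.4% of ACC-only and 43.4% of RSC-only regions carried H3K4me2 of ACC or RSC, against 63.2% and 43.9% with the lists as deposited.

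Sites where both marks called the same direction were counted next. Of ACC-only H3K27ac regions, 2796 or 25.7% (24.9 to 26.6) overlapped an ACC-only H3K4me2 region, and 631 or 5.81% (5.38 to 6.26) an RSC-only one. In the RSC-only set the counts were 727 or 11.9% (11.1 to 12.8) in the same and 432 or 7.09% (6.48 to 7.77) in the opposite direction. Over the whole ACC list 20.95% met ACC-only and 9.29% RSC-only H3K4me2, and over the whole RSC list 11.2% met RSC-only and 14.3% ACC-only H3K4me2. The same-direction share of the RSC-only set was thus near that of its list, and its opposite-direction share was lower. Read from H3K4me2, 2823 of 13497 ACC-only regions (20.9%) met ACC-only acetylation and 432 (3.20%) met RSC-only acetylation. Over the whole ACC H3K4me2 list these shares were 17.9% and 5.40%. RSC-only H3K4me2 regions met RSC-only acetylation in 727 and ACC-only acetylation in 634 cases, or 10.8% and 9.45% of 6706, a near balance. Over the whole RSC H3K4me2 list of 28050 regions the balance tipped to ACC, with 2120 (7.56%) and 3855 (13.7%).

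The widest ACC-only H3K27ac regions that overlapped an ACC-only H3K4me2 region had acetylated counterparts in LEC and none in MEC. At chr10:39117526-39138650, ACC H3K27ac filled 21125 bp and ACC H3K4me2 18050 bp, where RSC had 0 bp and 2150 bp. LEC covered 7100 bp there with H3K27ac and 12525 bp with H3K4me2. At chr12:107077801-107097075, 19275 bp wide, RSC had neither mark, and LEC H3K27ac covered 4525 bp. At chr3:86953451-86970000, LEC H3K27ac covered all 16550 bp, while RSC had only 2300 bp of H3K4me2. MEC H3K27ac covered 0 bp at each of these 3 sites.

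The widest RSC-only H3K27ac regions that overlapped an RSC-only H3K4me2 region were smaller, and each also overlapped other H3K4me2 regions present in ACC. At chr8:25321126-25332200, 11075 bp wide, RSC H3K4me2 covered 5250 bp and ACC H3K4me2 2625 bp. LEC H3K27ac covered 7675 bp and MEC H3K27ac 4450 bp of this region. At chr5:20172551-20183600 LEC covered 2900 bp and MEC 4025 bp with H3K27ac. The region chr7:104912326-104919900 was covered over 4675 bp in LEC and 0 bp in MEC.

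Some broad H3K27ac regions of 1 area overlapped H3K4me2 regions carried by the other area only, among further H3K4me2 regions. The widest RSC-only acetylated region of all, chr2:166942826-166995175, spanned 52350 bp with no ACC H3K27ac region within 4425 bp, yet ACC H3K4me2 covered 39350 bp of it and RSC H3K4me2 26750 bp. LEC H3K27ac covered 41575 bp and MEC 23500 bp of it. At chr9:113532851-113544725, LEC and MEC acetylation both covered all 11875 bp of an RSC-only region, where H3K4me2 covered 4450 bp in ACC and 1875 bp in RSC. Acetylated in ACC only were chr2:69889601-69907500 and chr4:104327901-104337525. At these, H3K4me2 covered 2150 and 3600 bp in RSC and 1875 and 2975 bp in ACC.

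The LEC and MEC lists, which the rule did not use, separated the 2 sets. ACC-only acetylated enhancers were found in LEC far more often than in MEC, and RSC-only ones had less LEC and more MEC. The LEC H3K27ac enhancer list overlapped 43.1% (42.2 to 44.1) of ACC-only and 25.6% (24.5 to 26.7) of RSC-only regions. The MEC list overlapped 6.79% (6.34 to 7.28) of ACC-only and 17.01% (16.1 to 17.98) of RSC-only regions. The shares over the whole ACC and RSC lists were 55.1% and 52.5% for LEC, and 23.4% and 28.9% for MEC. Common regions were alike from either side, with 64.1% and 64.4% for LEC and 34.6% and 34.1% for MEC.

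Counted without regions present in both entorhinal divisions, 4222 ACC-only regions were in LEC and not MEC, and 274 in MEC and not LEC, a ratio of 15.4. In the RSC-only set the numbers were 1106 and 582, a ratio of 1.90. Common regions lay between, at 4.40 over ACC regions and 4.59 over RSC regions. The ratios cannot be read as absolute, because the MEC list held 10709 autosomal regions and the LEC list 22461. The whole ACC and RSC lists had ratios of 6.02 and 3.64. The same LEC and MEC lists were read over each set. The sets differ in width, however, overlap with both lists rose with width, and the ratios were not matched for it.

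The contrast was present in all 4 width classes. Among regions of 1000 to under 2000 bp, LEC overlapped 40.8% of ACC-only and 23.1% of RSC-only regions, and MEC 4.59% and 13.6%. Over all ACC and RSC regions of that width, LEC overlapped 44.5% and 43.6%, and MEC 12.0% and 15.1%. The ACC-only LEC share and the RSC-only MEC share were thus little below those of their lists. The ACC-only MEC share and the RSC-only LEC share lay further below. From 4000 bp upward, LEC overlapped 72.5% of 806 ACC-only and 55.6% of 315 RSC-only regions, and MEC 20.3% and 52.1%. Over all ACC and RSC regions of this class these were 81.9% and 76.0% for LEC, and 49.4% and 62.5% for MEC. In the RSC-only set the MEC share thus nearly reached the LEC share among the broadest regions. With the ACC lists cut to the RSC length, the contrast stayed: LEC overlapped 50.3% and 26.5%, and MEC 8.03% and 16.7%.

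**Figure D4:**
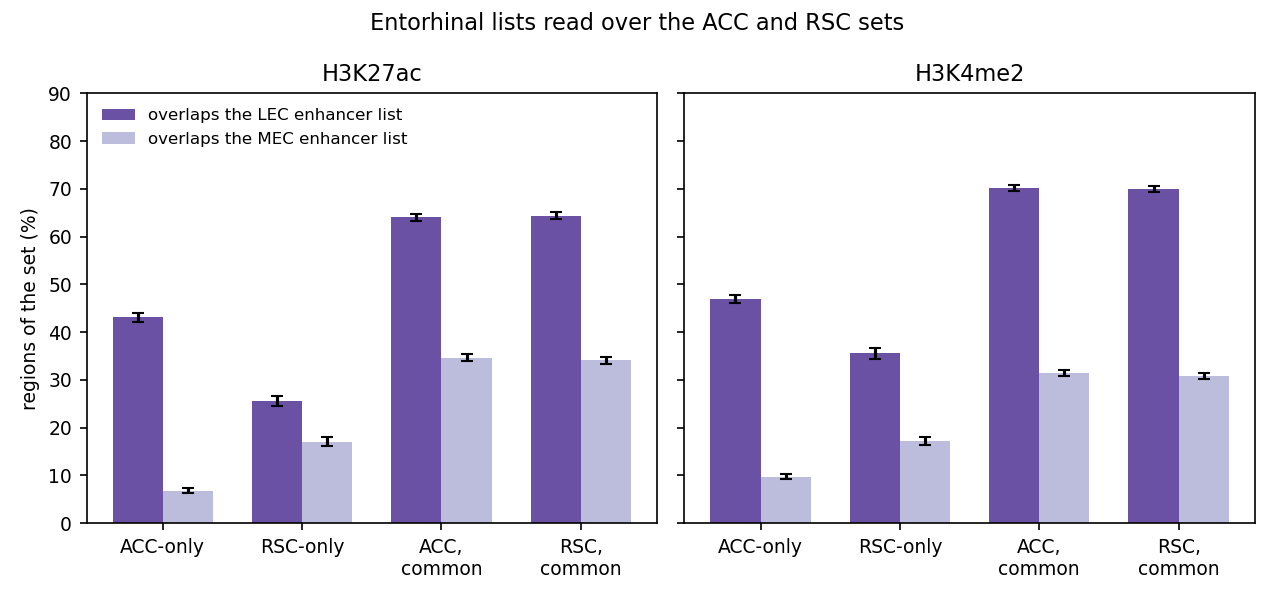
Percentage of regions of each set (vertical axis) overlapped by the LEC and MEC enhancer lists of the same mark, with Wilson 95% intervals. ACC-only regions show the higher LEC and the lower MEC bar of the 2 one-area sets in H3K27ac (43.1% and 6.79%) and in H3K4me2.

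H3K4me2 showed the same order with a smaller contrast. LEC overlapped 46.95% (46.1 to 47.8) of ACC-only and 35.6% (34.5 to 36.7) of RSC-only H3K4me2 regions, and MEC 9.69% (9.20 to 10.2) and 17.2% (16.3 to 18.1). The ratio of LEC without MEC to MEC without LEC was 13.8 in the ACC-only and 3.82 in the RSC-only set. The labels describe 1 MEC library for H3K4me2. Whether ACC shared a preparation or a sequencing run with LEC, or RSC with MEC, is stated in none of the sources used here, and the part of such a link was not tested.

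Where the marks agreed in ACC, the LEC share was higher than in the rest of the set, which includes regions without H3K4me2. ACC-only H3K27ac regions that also met ACC-only H3K4me2 were in LEC in 49.9% (48.1 to 51.8) and in MEC in 4.47% (3.77 to 5.30), against 40.8% (39.7 to 41.9) and 7.60% (7.04 to 8.20) for the rest of the set. RSC-only regions showed no such step: LEC overlapped 25.7% (22.7 to 29.02) of the 727 regions with RSC-only H3K4me2 and 25.6% (24.5 to 26.8) of the rest. For MEC these were 17.5% (14.9 to 20.4) and 16.9% (15.97 to 17.98). The step in ACC was not particular to agreement of the marks. The LEC full list overlapped 1432 of 2860 ACC-only regions with H3K4me2 in ACC alone and 1899 of 3375 with it in both areas. With H3K4me2 in RSC alone it was 280 of 634, and with it in neither area 1291 of 3994. Regions were not matched for width in these comparisons.

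A large part of each set was in neither entorhinal full list. This held for 5692 ACC-only (52.4%) and 3844 RSC-only (63.1%) H3K27ac regions, against 36.5% of all ACC and 34.9% of all RSC regions. They were narrow, with medians of 1200 and 1250 bp, and 54.4% (53.1 to 55.7) of the ACC and 34.1% (32.6 to 35.6) of the RSC ones carried H3K4me2 of ACC or RSC. Where they did, it was in the acetylated area alone in 44.98% (43.2 to 46.7) and 37.2% (34.6 to 39.8). Regions also present in LEC were wider, with medians of 1875 and 1900 bp, and widths were not matched. They carried H3K4me2 more often, in 73.7% (72.4 to 74.9) of ACC-only and 68.9% (66.6 to 71.1) of RSC-only ones. Of those with H3K4me2, ACC-only regions had it in ACC alone in 39.7% (38.1 to 41.3). RSC-only ones had it in RSC alone in 16.6% (14.6 to 18.9), in ACC alone in 17.9% and in both in 65.5%. Over all RSC H3K27ac enhancer regions with H3K4me2 these shares were 14.9%, 19.8% and 65.3%.

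Regions that met only excluded regions of the other area were unevenly divided. They numbered 1717 in the RSC H3K27ac enhancer list (7.26%) and 613 in that of ACC (2.25%). For H3K4me2 they numbered 1300 (4.63%) and 258 (0.772%). The LEC full H3K27ac list overlapped 80.2% (78.2 to 82.0) of the RSC ones, against 57.2% of all RSC enhancer regions. The LEC enhancer list overlapped 38.5% (36.2 to 40.8), against 52.5% of all. They lay close to excluded regions of RSC itself, with a median gap of 6050 bp, against 36675 bp over all RSC enhancer regions. Since these regions were chosen for meeting excluded regions of ACC, their nearness to those of RSC is no separate result. At these places both areas were marked over at least 1 bp, and the marked region of the other area was outside its enhancer list. Whether the regions differed in extent or in how they were merged was not tested.

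RSC-only regions lay further from excluded regions than common and ACC-only ones. The median RSC-only H3K27ac region lay 50488 bp from the nearest excluded region of RSC, and 34.9% lay over 100 kb away. For common RSC regions these were 38175 bp and 25.2%. ACC-only regions were slightly nearer than common ones, with medians of 30025 and 32650 bp. Since the excluded lists of the areas differ in length, the distance was also taken to the excluded H3K27ac regions of LEC. Over 100 kb from these lay 35.1% (33.9 to 36.3) of RSC-only and 21.4% (20.7 to 22.2) of ACC-only regions, with 24.2% and 24.5% of common RSC and ACC regions between them. Over the whole RSC and ACC H3K27ac enhancer lists it was 25.4% and 22.8%. In H3K4me2 the order was the same, with 29.6% (28.5 to 30.7) and 22.8% (22.1 to 23.6). The rule kept H3K27ac regions that met only excluded regions of the other area out of these sets, 1717 in RSC and 613 in ACC. Of these, 76.1% and 72.1% lay within 10 kb of excluded H3K27ac regions of LEC. The part of the rule in the distances was not tested.

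Finally, places with the largest imbalance in enhancer bases were located in windows of 250 kb. Over 6748 windows with H3K27ac enhancer bases in ACC or RSC, the ACC minus RSC difference in H3K27ac went with that in H3K4me2 (Pearson r 0.508, Spearman rho 0.417, across windows). Windows are not replicates, and list length and region density enter both axes. In the 50 windows with the most surplus H3K27ac in ACC, H3K4me2 bases were also higher in ACC in 49 and higher in RSC in 1. In the 50 with the most surplus in RSC, H3K4me2 was higher in RSC in 21 and in ACC in 28. Over all windows H3K4me2 was higher in ACC in 64.3% and in RSC in 28.7%. The full H3K27ac lists kept the direction in 47 of the 50 ACC windows and in 37 of the 50 RSC windows. In the other 13 RSC windows ACC had more H3K27ac once excluded regions were counted, so the RSC surplus there was in the enhancer lists alone.

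**Figure D5:**
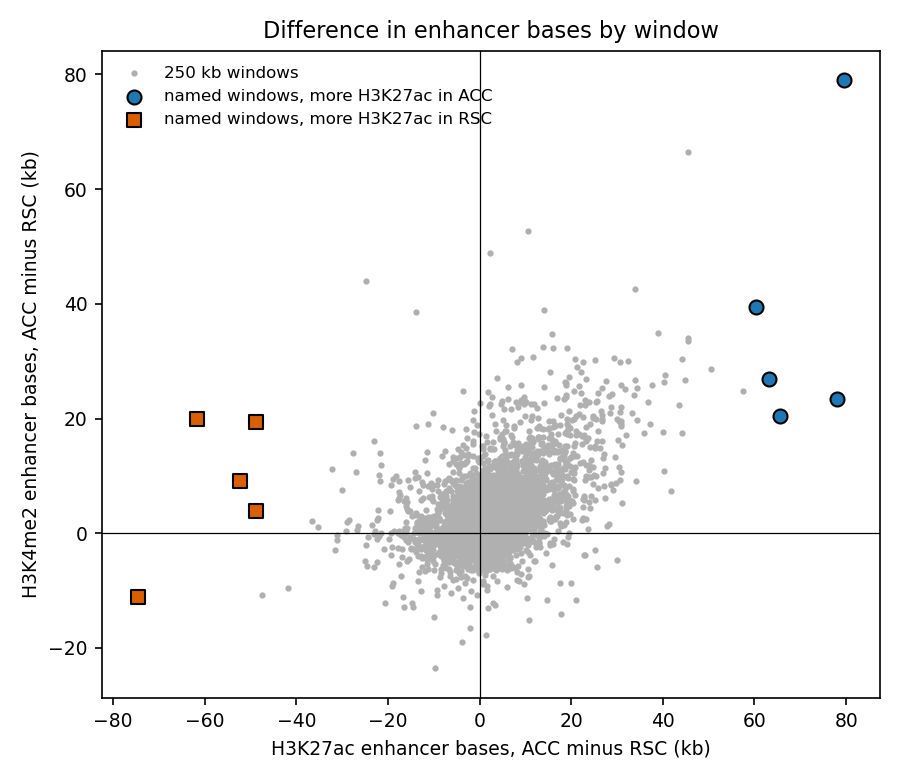
Difference in covered enhancer bases, ACC minus RSC, in kb, for H3K27ac (horizontal axis) and H3K4me2 (vertical axis) in 6748 windows of 250 kb, with 10 named windows enlarged. All 5 named windows with more H3K27ac in ACC lie above 0 on the vertical axis, and 1 of the 5 with more in RSC lies below it.

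In the leading ACC windows the surplus came with wider regions, more regions or both. At chr8:122750001-123000000, 15 ACC H3K27ac regions covered 183 kb and 19 RSC regions 104 kb. H3K4me2 covered 125.7 kb in ACC and 46.7 kb in RSC, and 14 of its ACC regions were ACC-only. At chr4:153750001-154000000 ACC had 20 acetylated regions over 111 kb, 11 of them ACC-only, and RSC 12 over 33.4 kb. LEC had 58.8 kb there and MEC 0. At chr12:106000001-106250000 ACC had 85.95 kb and RSC 20.3 kb, with 9 ACC-only regions in each mark. The window chr14:31000001-31250000 held 83.9 kb in ACC and 23.5 kb in RSC. In the window chr14:64750001-65000000 the lead was in the enhancer lists alone: 79.2 kb against 15.98 kb there, but 234 kb against 242 kb in the full lists. LEC and MEC had 169 and 154 kb in their enhancer lists there.

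The leading RSC window, chr2:169500001-169750000, had 22 RSC H3K27ac regions covering 78.95 kb and 3 ACC regions covering 4.35 kb. Of its RSC regions 19 were RSC-only, and LEC and MEC had 11.65 and 6 kb. General knowledge of this build places it at Tshz2, a gene for a zinc-finger transcription factor. H3K4me2 was higher in RSC too, at 21.7 against 10.6 kb, the only named RSC window where it was. At chr2:166750001-167000000, RSC H3K27ac covered 72.6 kb and ACC 10.85 kb, while H3K4me2 covered 30.9 and 50.8 kb. At chr9:113000001-113250000 acetylation was dense in all areas, with 128 kb in RSC, 104 kb in LEC, 85.6 kb in MEC and 79.55 kb in ACC, and H3K4me2 covered at most 7.63 kb in any area.

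In the other RSC windows the excluded regions evened out the areas. At chr6:113750001-114000000 the enhancer lists gave 67.9 kb in RSC and 15.7 kb in ACC, and the full lists 209 and 219 kb. At chr2:44750001-45000000, where general knowledge places Zeb2, a gene for a zinc-finger homeobox transcription factor, the enhancer lists gave 50.3 and 1.50 kb, and the full lists 115.8 and 114.7 kb. Of the 10 named windows, 8 kept their direction in the full lists, the Zeb2 window by 1.13 kb.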

How the data were processed

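The deposited files are lists of enriched regions, 1 full and 1 enhancer list for each of 4 subregions and 2 marks. The authors deposited positions and, in most lists, region widths in bp as the score, so no enrichment value was analysed here. The MEC H3K27ac lists lack the width column and the MEC lists reach slightly narrower regions than the others; whether they were made differently was not tested. Bowtie 1.1.1, bedtools 2.19.0 and build mm9 are named, per the submitters' processing notes. How peaks were called, at which threshold, and how libraries were merged was not given in the sources used here. Of 17 lists, 16 were used, since 1 repeated another.

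From these lists overlaps (at least 1 bp), widths, gaps and covered bases on the 19 autosomes were computed with Python 3.11.15 and numpy 2.4.6, and the overlap step was tested on simulated data and against bedtools 2.31.1. No test was made. Named regions were, per direction, the 5 windows of 250 kb with the largest H3K27ac difference (over 1 Mb apart), the 3 widest H3K27ac regions overlapping H3K4me2 of the same direction, the 2 widest overlapping the opposite direction and the 3 common pairs sharing most bases. Tested alternatives were 6 settings for 10 values. The members and rules were chosen with earlier results of these data known. Coordinates are 1-based. No sequence is shown, because no genome of this build was used.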

Additional observations from a re-analysis of the deposited data

How the results depend on the processing

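No paired analysis was possible because the lists combine the libraries of a group and carry no replicate numbers, and for the same reason no library could be left out. Counting all chromosomes left all 10 values within their intervals. Values are given ACC-only first, RSC-only second. Set against the other area's enhancer list alone, the shares were 42.2% and 32.99% for H3K27ac, and 41.2% and 28.5% for H3K4me2. H3K4me2 in the own area alone was then 40.1% and 20.5%, LEC overlapped 28.4% of RSC-only regions, and MEC 8.01% and 18.5%. Requiring 50% of a region to be covered gave 46.4% and 29.4% for H3K27ac, 45.5% and 25.04% for H3K4me2, 49.7% ACC-only regions with H3K4me2 in ACC alone, 40.6% and 24.03% in LEC, and 4.76% and 14.6% in MEC. Counting regions within 1000 bp as overlapping gave 39.3% and 25.1% for H3K27ac. Regions of at least 1000 bp gave 38.9% and 24.6% for H3K27ac, 39.8% and 21.99% for H3K4me2, and 46.1% and 27.4% in LEC. ACC lists cut to the RSC length gave 35.1% and 32.1% for H3K27ac, 34.1% and 30.7% for H3K4me2, 36.8% and 36.7% with H3K4me2 in the own area alone, and 50.3% (LEC) and 8.03% (MEC) for ACC-only regions. In all 6 settings LEC overlapped ACC-only regions more often than RSC-only ones, and MEC less often. Depth is unknown, so a region missing from a list is not shown to lack the mark.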

Other observations

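One-area regions tended to have a neighbour of their own kind. The nearest ACC H3K27ac enhancer region of an ACC-only region was itself ACC-only in 47.8% (46.9 to 48.8), and for the other ACC regions in 34.3% (33.6 to 35.04). For RSC the values were 35.1% (33.9 to 36.3) and 22.4% (21.8 to 23.04). H3K4me2 showed smaller steps, from 39.1% to 43.4% in ACC and from 22.1% to 27.9% in RSC. Runs of at least 5 successive ACC-only H3K27ac regions numbered 295 and held 1814 regions, the longest with 13. RSC had 80 such runs with 470 regions, the longest with 11. A higher one-area share by itself gives more such runs, and the share was 39.9% in ACC and 25.7% in RSC. The number of runs to be had from these shares alone was not computed.

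The chromosomes differed little. The ACC-only share of H3K27ac regions ran from 37.1% on chromosome 13 to 42.8% on chromosome 2, and the RSC-only share from 22.8% on chromosome 17 to 28.8% on chromosome 18. For H3K4me2 the ACC-only share ran from 37.5% on chromosome 18 to 43.96% on chromosome 2, and the RSC-only share from 20.04% on chromosome 12 to 26.9% on chromosome 14.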
